A study of Bos taurus with 15 samples.

Results

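The growth hormone receptor gene GHR (gene ID 280805) was described through its CpG methylation in liver and mammary gland of Holstein cattle. The bounds of the region were set by position and not by any measured value: chr20:31850000-32230000 of the UMD3.1 build, which holds the gene (about 31890736 to 32199996) and some sequence on both sides. The gene itself was chosen with earlier results of these data known. GHR lies on the minus strand, so transcription starts at the high end of these coordinates. Split into 10 kb bins, the region gave 38 of the 268638 bins of the genome with any call, and each of the 38 was read in at least 1 animal of each tissue. Bins are numbered here from 1 at the low end (past the 3' end of the gene) to 38 at the high end (upstream of the gene). In the RefSeq order of genes on the ARS-UCD2.0 assembly, from which no position was taken, GHR stands between SELENOP and CCDC152 on one side and FBXO4 and RIMOC1 on the other.

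GHR encodes the cell surface receptor for growth hormone. Binding of the hormone activates a Janus kinase bound to the receptor and, through it, STAT transcription factors. In liver this signal drives the synthesis of insulin-like growth factor I, and in ruminants the gene is transcribed from several promoters with separate first exons, one of them used mainly in liver. CpG methylation is common along the body of most mammalian genes and is often low over CpG-rich starts of transcription.

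Liver was taken at birth from bull calves and mammary gland was biopsied from heifers on day 21 of the first lactation. Dams spent about the last 6 to 7 weeks of gestation under shade alone (heat stress, IUHT) or under shade with fans and soakers (cooling, IUCL). The groups were 5 IUCL-B and 4 IUHT-B calves and 3 IUCL-H and 3 IUHT-H heifers, with 1 library per animal. Every liver came from a newborn male and every mammary gland from a lactating female, so tissue, sex, age and the animals themselves cannot be told apart. A level is an average over all cell types of the sample, and RNA of GHR was not analysed here.

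Calf libraries held 10484911 to 38221835 CpG calls at 307023 to 5958861 positions, and heifer libraries 13949097 to 20240625 calls at 7552567 to 9753540 positions. Over the GHR region the calves had 899 to 3130 calls at 26 to 460 positions, and the heifers 794 to 1069 calls at 591 to 749 positions. Calf reads were thus stacked on few positions (up to 413 reads at 1 position), while heifer reads were thin and spread (at most 16). Of 2480 distinct positions, 890 were read in liver, 2091 in mammary gland and 501 in both. No more than 6 calves shared any position, and 665 of the 890 liver positions (74.7%) were read in 1 calf.

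Which positions were read also differed between sets of calves. Pairs of IUHT-B calves shared 22.4 to 69.2% of the positions of the smaller library, and pairs among IUCL-B calves 1, 2 and 3 shared 41.8 to 53.3%. A calf of one of these sets shared 0 to 24.4% with a calf of the other, and IUCL-B calves 4 and 5, which belong to neither set, shared 20.5% with each other. At shared positions within the IUHT-B set, 0 of 78 compared pairs of values stood in opposite states (at least 90% against at most 10%), and within IUCL-B calves 1 to 3 it was 6 of 103 (5.83%). The share was 15 of 71 (21.1%) between these sets, 10 of 56 (17.9%) between IUCL-B calves 4 and 5, and 552 of 3002 (18.4%) between heifers. Heifer positions held a median of 1 read, so their share is not on the same footing as that of the calves. Whether the calves of a set count as independent animals cannot be read from these files. The tissue differences are given below also with each set counted as 1 animal. All IUHT-B calves fall in the same set, so no such count is given for treatment in liver.

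Over the whole region GHR was methylated to a larger extent in liver than in mammary gland. The level (methylated calls as a percent of all calls of an animal) was 86.6, 83.8, 96.0, 81.3 and 76.8% in IUCL-B calves 1 to 5. In IUHT-B calves 2 to 5 it was 92.7, 99.3, 90.9 and 75.8%. By this level IUHT-B calf 5 was the lowest and IUHT-B calf 3 the highest of the livers, so the IUHT-B values enclosed those of IUCL-B. The heifers stood at 70.0, 75.8 and 71.6% (IUCL-H) and 75.4, 76.8 and 69.7% (IUHT-H), a narrower range that touched only the lowest calves, IUCL-B 5 and IUHT-B 5. Wilson 95% intervals reached from 73.7 to 77.8% in IUHT-B calf 5, from 98.8 to 99.6% in IUHT-B calf 3 and from 67.0 to 72.9% in IUCL-H 1, and cover counting error only, since reads were not tagged by molecule. The order of the livers depended on the weighting. With every position weighted alike, IUHT-B calf 5, read at 26 positions, was the highest liver at 92.3%. IUHT-B calf 3 then stood at 80.0%, and IUCL-B calf 5 was the lowest liver at 72.4%.

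**Figure D1:**
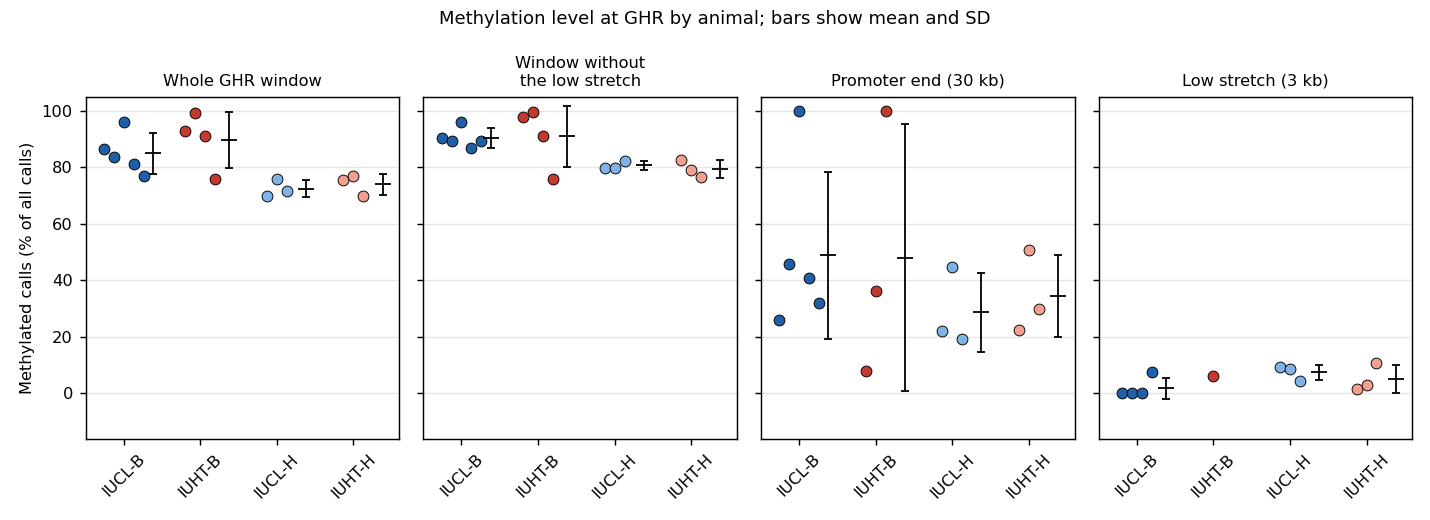
Methylated calls as a percent of all calls (vertical axis) per animal, by group, with the mean and SD of each group, in 4 panels: the whole GHR region, the region without the low stretch at its high end, the promoter end (the 3 bins round the high end) and the low stretch (the 3 kb of lowest methylation there), for animals with more than 10 calls. Over the whole region the livers ranged from 75.8 to 99.3% and the mammary glands from 69.7 to 76.8%, while every value in the low stretch was under 11%.

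The mean was 87.0% ± 8.31 (SD, n = 9) in liver and 73.2% ± 3.15 (SD, n = 6) in mammary gland. The difference of 13.8 percentage points gave p = 0.0026 in a two-sided exact permutation test over 5005 splits. The p-value was 0.0234 after Benjamini-Hochberg adjustment over the 9 main exact tests of this locus. Exact p-values of alternative settings, here and below, were not adjusted. The difference was 12.3 to 15.2 points with any 1 animal left out. With every position weighted alike, so that deep positions count no more than shallow ones, it was 10.6 points (exact permutation p = 0.004). With the IUHT-B calves counted as 1 animal and IUCL-B calves 1 to 3 as 1, the difference was 10.9 points (exact permutation p = 0.00476, the smallest that design can give), or 7.25 with every position weighted alike (exact permutation p = 0.0429).

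The libraries as a whole also differed, at 75.0 to 79.3% in calves and 72.2 to 76.2% in heifers. Set against its own library, the GHR region stood 8.91 points higher in liver and 1.31 points lower in mammary gland (-1.31), a difference of 10.2 points (exact permutation p = 0.0126). Split into windows of the length of the locus, the genome had a median liver minus mammary difference of 5.24 points, and 88.5% of 7211 windows had a lower difference than GHR. In a logistic regression with overdispersion over those windows, 6.39% were called (at least 15 points and q of 0.2 or less). GHR was not among them, with a pooled difference of 12.7 points and q = 0.146 in that fit. IUCL-B calves 4 and 5, which shared 10.4 to 32.7% of positions with the other calves, differed less from the heifers when taken as the only calves, by 5.82 points (exact permutation p = 0.0714), or 1.32 with positions weighted alike (exact permutation p = 0.536).

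The maternal treatment gave no difference in the level of the region beyond the spread between animals in either tissue. In liver, IUHT-B calves averaged 89.7% ± 9.92 (SD, n = 4) and IUCL-B calves 84.9% ± 7.17 (SD, n = 5), a difference of 4.79 points (exact permutation p = 0.421, adjusted p = 0.75). Over the positions read in both groups the sign turned, to -1.71 points. The IUHT-B calves form a set of similar libraries and IUCL-B calves 1 to 3 another, so treatment and set cannot be told apart in liver. The liver treatment tests, here and below, count each calf as independent. In mammary gland, IUHT-H heifers averaged 74.0% ± 3.77 (SD, n = 3) and IUCL-H heifers 72.5% ± 2.99 (SD, n = 3), a difference of 1.50 points (exact permutation p = 0.8, adjusted p = 0.9), where 3 against 3 animals cannot go below 0.1. The treatment effects in the tissues differed by 3.29 points (exact permutation p = 0.606 over 2520 combinations, adjusted p = 0.780). As a single window in the genome-wide fits, the locus had q = 0.696 in liver, where 0.0693% of 7219 windows were called, and q = 1 in mammary gland, where 0.00% of 8432 were called.

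The high end of the gene, the side from which it is transcribed, carried the widest stretch of low methylation that both tissues shared. A stretch of 3 kb at chr20:32198000-32200999, from 1996 bp inside the high end of the gene as given above to 1003 bp beyond it, was nearly free of methylation. It was picked by its values (the run of 1 kb stretches round the high end with a pooled level under 50% in both tissues), so its level is a description. The gene's span was not checked against an annotation of this build, and RefSeq gives GHR a shorter span on ARS-UCD2.0, so the distance of the stretch from a start of transcription is uncertain. In mammary gland 37 of 531 calls there were methylated (6.97%), and in liver 35 of 900 (3.89%). The 3 stretches of 1 kb stood at 9.26, 7.08 and 6.37% in mammary gland from the inner to the outer one. The liver values of the same stretches were 0% of 9 calls, 1.08% of 650 calls and 11.6% of 241 calls.

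Per animal, the low stretch stood at 9.38, 8.47 and 4.58% in IUCL-H and at 1.41, 3.13 and 10.9% in IUHT-H heifers, from 32 to 131 calls each (mean 6.31% ± 3.81, SD, n = 6). All 6 heifers were thus under 11%, and the groups overlapped. Among calves it was 0% in IUCL-B 1, 2 and 4, where 0 of 135, 131 and 153 calls allow up to 2.22, 2.29 and 1.96% (3 counts of the total). These limits cover counting error at the positions read and do not bound the whole stretch. The calls lay at 5, 3 and 23 positions, with 127 of those of IUCL-B 2 in a single one. The level was 7.47% of 375 calls in IUCL-B 5 and 6.12% of 98 calls in IUHT-B 2. The 28 methylated calls of IUCL-B 5 lay in the outermost 1 kb, where 232 of its calls fell. IUHT-B 3 had 1 methylated call among 8, while IUCL-B 3, IUHT-B 4 and IUHT-B 5 were not read in the low stretch, so it rests on 1 IUHT-B library with more than 10 calls and allows no comparison of treatments in liver. Of 169 positions read there in mammary gland 137 had no methylated call, and of 106 in liver 100 had none.

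Single 1 kb stretches elsewhere also had low pooled levels in liver. Outside the low stretch, 5 with more than 10 calls stood under 12%, each at 1 to 5 positions in 1 to 4 calves, the deepest of them at chr20:31999000-31999999 with 0% of 118 calls at 1 position in 3 calves. With positions weighted alike, 2 of the 5 stood far higher, chr20:32116000-32116999 at 62.5% (5.77% pooled) and chr20:32054000-32054999 at 50% (7.69% pooled), whereas the low stretch at the high end stood at 3.81% in liver. In mammary gland 0 such stretches were under 12%. CpG positions were dense in the low stretch at the high end. Its 209 distinct positions made up 8.43% of those of the region in 0.789% of its length, or 69.7 positions per kb against 6.02 per kb in the rest. The low stretch ends where the next 1 kb failed the rule that picked it, so the levels at its borders are a description only. The next 1 kb upstream stood at 71.1% of 38 calls in mammary gland and at 100% of 24 calls in 1 calf. The next 1 kb inside the gene stood at 66.7% of only 3 calls in mammary gland and 100% of 25 calls in 1 calf. Such low, dense stretches were common in the genome: among 1 kb stretches with at least 50 positions over the heifers, 23.2% of 64897 had a pooled level under 20%, as did both such stretches at GHR. Among 1 kb stretches with at least 20 mammary calls, 7 of the 85 of the region and 10.1% of those of the genome stood under 50%.

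**Figure D2:**
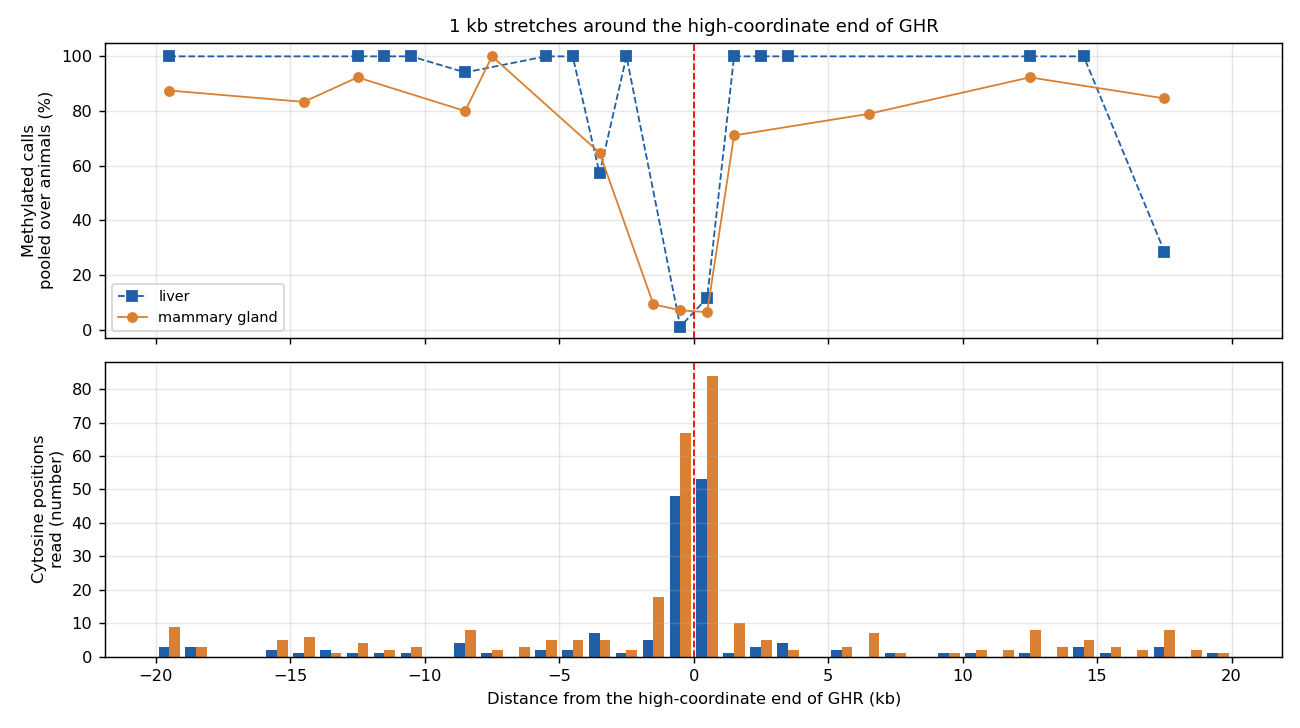
Upper panel: pooled methylation level (percent) of 1 kb stretches with more than 10 calls by distance from the high end of GHR (kb, horizontal axis, 0 at the dashed line), in liver (squares) and mammary gland (circles). Lower panel: number of positions read in each stretch. Levels were under 12% from -1.496 kb (mammary gland) or -0.496 kb (liver) to 0.504 kb, where positions were densest, and higher in the 1 kb stretches next to it. The low stretch was picked by these levels, so its borders are a description only.

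The promoter end was set as the 10 kb bin that holds the high end of the gene with 1 bin on each side (bins 34 to 36). Its level was 25.8, 45.6, 100, 40.8 and 32.1% in IUCL-B calves 1 to 5 and 7.84, 36.4 and 100% in IUHT-B calves 2, 3 and 4. IUHT-B 5 was not read there. Both calves at 100% (14 and 29 calls) had no call in the low stretch, which took 96.1% of the calls of IUHT-B 2, the lowest calf. The heifers stood at 22.0, 44.8 and 19.3% (IUCL-H) and 22.5, 50.6 and 29.9% (IUHT-H), where the low stretch took 37.6 to 81.4% of the calls.

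Liver averaged 48.6% ± 33.7 (SD, n = 8) and mammary gland 31.5% ± 13.1 (SD, n = 6) over the promoter end, and the difference of 17.1 points was within the spread (exact permutation p = 0.295, adjusted p = 0.665). Treatments did not separate either. IUHT-B calves averaged 48.1% ± 47.2 (SD, n = 3) and IUCL-B calves 48.9% ± 29.6 (SD, n = 5; exact permutation p = 1, where 0.0179 is the smallest possible). IUHT-H heifers averaged 34.4% ± 14.5 and IUCL-H heifers 28.7% ± 14.0 (SD, n = 3 each; exact permutation p = 0.5, adjusted p = 0.75).

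Within an animal, the promoter end was lower than the rest of the region in 6 of 6 heifers, by a mean of -48.6 points ± 14.6 (SD, n = 6; exact sign-flip permutation p = 0.0313, the smallest that 6 animals allow, adjusted p = 0.0938). In calves it was lower in 6 of 8, by a mean of -43.7 points ± 34.3 (SD, n = 8; exact sign-flip permutation p = 0.0313, adjusted p = 0.0938), and by -46.1 with each set of calves counted as 1 (exact sign-flip permutation p = 0.125, the smallest possible). This contrast was chosen after the values were seen. With the low stretch taken out, over animals with more than 10 calls left, the promoter end stood at 98.5% ± 2.28 (SD, n = 6) in liver and 79.7% ± 9.38 (SD, n = 6) in mammary gland, a difference of 18.8 points (exact permutation p = 0.00216, the smallest possible). Only 1 of those 6 livers was of an IUHT-B calf, and IUHT-B 2, left out, had 2 methylated calls of 4. With each set of calves counted as 1 the difference was 19.0 points (exact permutation p = 0.0143). These livers were read at 1 (IUHT-B 4) to 21 positions there, and the heifers at 23 to 38. With positions weighted alike IUCL-B 1 stood at 50% (4 positions), below every heifer (67.3 to 89.4%), and the other livers at 91.7 to 100%. By calls at the positions read, the promoter end outside the low stretch was thus higher in liver, like most of the gene body. Both tissues were low within the low stretch, which was picked for that.

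The tissues were also compared without the low stretch. On the remaining positions the region averaged 90.7% ± 7.05 (SD, n = 9) in liver and 80.1% in mammary gland, a difference of 10.6 points (exact permutation p = 0.0042). With every position weighted alike in addition, the livers ranged from 83.9 to 92.8% and the mammary glands from 76.5 to 82.4%. On that measure every calf stood above every heifer, by a mean of 8.88 points (exact permutation p = 0.0002, the smallest possible). With each set of calves counted as 1 these differences were 9.73 and 7.75 points (exact permutation p = 0.00476 for both, the smallest possible). IUCL-B calves 4 and 5 alone then differed from the heifers by 5.87 points (exact permutation p = 0.0357, the smallest possible for 2 against 6). The low stretch was picked by its levels in these same animals, and the settings without it were not among those planned. With it kept in and positions weighted alike, the livers (72.4 to 92.3%) and mammary glands (70.0 to 76.9%) overlapped.

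Bin by bin, most of GHR was more methylated in liver. No bin of the locus had more than 10 calls in all 15 animals, so bins with more than 10 calls in at least 3 animals of each tissue were tested, which left 33 of the 38 (bins 3, 6, 20, 36 and 37 were not tested). All bin values below are of animals with more than 10 calls in the bin. Of these 7 were called as different (at least 15 points in the pooled levels and q of 0.2 or less in a logistic regression with overdispersion), all higher in liver. Across the genome 13.8% of 193069 bins were called, 12.7% as higher in liver and 1.11% as lower, so such calls were frequent elsewhere too and nothing particular to GHR is read from the 7. By the means over animals, 29 of the 33 (87.9%) were higher in liver against 67.4% of all bins tested, and the median difference was 11.4 points against 5.98. The values of the 2 tissues did not overlap in 8 of the 33 bins (24.2%), against 11.5% of all bins.

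**Figure D3:**
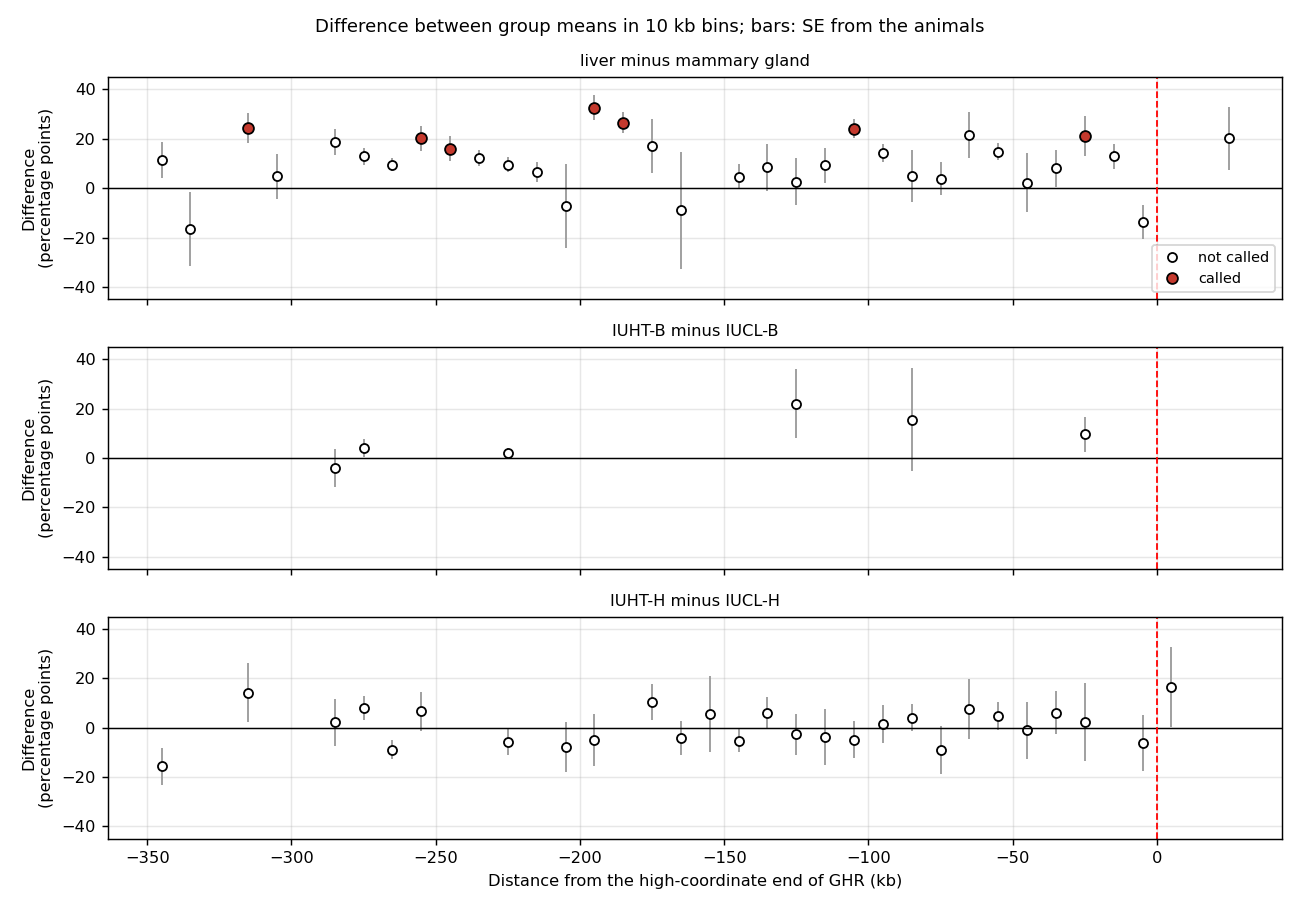
Difference of mean methylation levels (percentage points, vertical axis, bars for the standard error) of the tested 10 kb bins by distance from the high end of GHR (kb), in 3 panels: liver minus mammary gland, IUHT-B minus IUCL-B and IUHT-H minus IUCL-H. Filled points are bins called in the genome-wide fit, 7 in the first panel and 0 in the others, and 29 of the 33 points of the first panel lie above 0.

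In the gene body the largest pooled difference of a called bin was in bin 16 (chr20:32000000-32009999). The 3 calves with enough calls there, IUCL-B 1, 2 and 5, all stood at 100% from 144, 39 and 54 calls. The heifers stood at 82.4, 74.2 and 52.9% (IUCL-H) and 52.9, 72.7 and 68.8% (IUHT-H) from 16 to 31 calls, all below the calves. Pooled, bin 16 differed by 31.7 points (q = 0.00247). Bin 17 (chr20:32010000-32019999) stood next to it and was 100% in IUCL-B 2, IUCL-B 4 and IUHT-B 2, against 81.3, 66.7 and 72.7% in 3 heifers (26.2 points, q = 0.0286).

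Bin 25 (chr20:32090000-32099999) was 98.6% in IUCL-B 2, 92.7% in IUCL-B 5 and 100% in IUHT-B 2 and 4. Its mammary mean was 73.7% ± 8.59 (SD, n = 6), with no heifer above 82.4% (21.7 points, q = 0.0149). In bin 33 (chr20:32170000-32179999), nearest of the called bins to the high end, 6 of 7 calves stood between 95.5 and 100%. IUCL-B 4 was apart at 68.8% of 16 calls, and the heifers spread from 44.4 to 92.9%, so the tissues overlapped (25.2 points, q = 0.0911). With positions weighted alike the lowest calf was instead IUCL-B 1 at 66.7% (3 positions), and IUCL-B 4 stood at 85.7% (7 positions).

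Toward the low end, bin 10 (chr20:31940000-31949999) averaged 96.8% ± 6.45 (SD, n = 4) in liver and 76.6% ± 9.43 (SD, n = 6) in mammary gland, with q = 0.0924. Bin 11 (chr20:31950000-31959999) was 100% in 3 calves and 84.0% ± 11.3 (SD, n = 5) in heifers (15.4 points, q = 0.0144), while IUCL-B 5, with 5 calls and so left out, stood at 80.0%. Bin 4 (chr20:31880000-31889999), past the low end of the gene, was 100% in 3 calves and 75.6% ± 15.3 (SD, n = 6) in heifers (23.2 points, q = 0.0418). In bins 4, 11, 16 and 17 every liver with more than 10 calls was at 100%, so liver added no spread of its own. These livers still counted among the animals over which the dispersion was averaged, which lowers the estimate. In bins 16 and 17 the estimated dispersion was at its floor of 1, so their q rests on counting error alone, and in bins 4 and 11 it was 2.51 and 1.41. All 7 bins were also called by limma on logit levels and by edgeR on methylated and unmethylated counts, which called 11 each. Over the genome limma called 40611 and edgeR 31517 of 193069 bins, so their calls were frequent elsewhere too. In the logistic regression only 4 bins were called without IUCL-B replicate 2. With the calls of each set of calves summed as 1 animal 30 bins could be tested and 5 were called (bins 4, 10, 17, 25 and 33), all higher in liver, against 16.6% of 189846 bins of the genome. Bins 11 and 16 could not be tested in this way.

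Bin 29 (chr20:32130000-32139999) had one of the largest differences but was not called by the logistic regression (26.5 points, q = 0.273), while limma (q = 0.0374) and edgeR (q = 0.0675) called it. It was 100% in 4 calves and 63.6% in IUCL-B 4, while the heifers ranged from 45.5 to 86.4% (means 92.7% ± 16.3, n = 5, and 71.1% ± 13.9, n = 6; SD). The 4 bins lower in liver by their means were bins 2, 15, 19 and 35, none of them called. In bin 15 (chr20:31990000-31999999) the calves spread over the whole scale, from 0% of 23 calls in IUHT-B 4 (which allows up to 13.0%) and 12.9% in IUCL-B 2 to 99.6% in IUCL-B 3, and the heifers lay between 53.3 and 86.0%. The 23 calls of IUHT-B 4 lay at 2 positions, and the limit covers counting error only. The spread of the calves in bin 15 depended on the weighting. With positions weighted alike IUHT-B 4 stayed at 0%, while the other calves stood at 60% (IUCL-B 2, 5 positions) to 86.7% (IUCL-B 5, 15 positions). In bin 19 (chr20:32030000-32039999) 1 calf, IUCL-B 5, stood at 4.0% of 25 calls and the 3 others at 93.7 to 100%. Bin 2 (chr20:31860000-31869999) held 1 low calf as well, IUCL-B 5 at 29.4% of 17 calls (83.3% with its 6 positions weighted alike), and its pooled difference was positive, as in bins 15 and 19.

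Bin 35 (chr20:32190000-32199999) holds the inner part of the low stretch. It was 0.719, 5.76, 14.8 and 27.5% in IUCL-B 1, 2, 4 and 5 and 8.0% in IUHT-B 2, for a mean of 11.3% ± 10.3 (SD, n = 5). The heifers stood at 30.5, 40.4 and 13.9% (IUCL-H) and 6.90, 34.9 and 24.3% (IUHT-H), for a mean of 25.1% ± 12.8 (SD, n = 6). The tissues overlapped (q = 0.505). It was the 1 bin among 27 with more than 10 calls in every heifer in which all heifers were under 50%, as were 3.43% of such bins in the genome. Its neighbour inside the gene, bin 34 (chr20:32180000-32189999), was 96.6 to 100% in 6 calves and 76.5 to 92.3% in 3 heifers. The other heifers had 10 calls or fewer there, IUCL-H 3 among them at 100% of 7 calls.

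**Figure D4:**
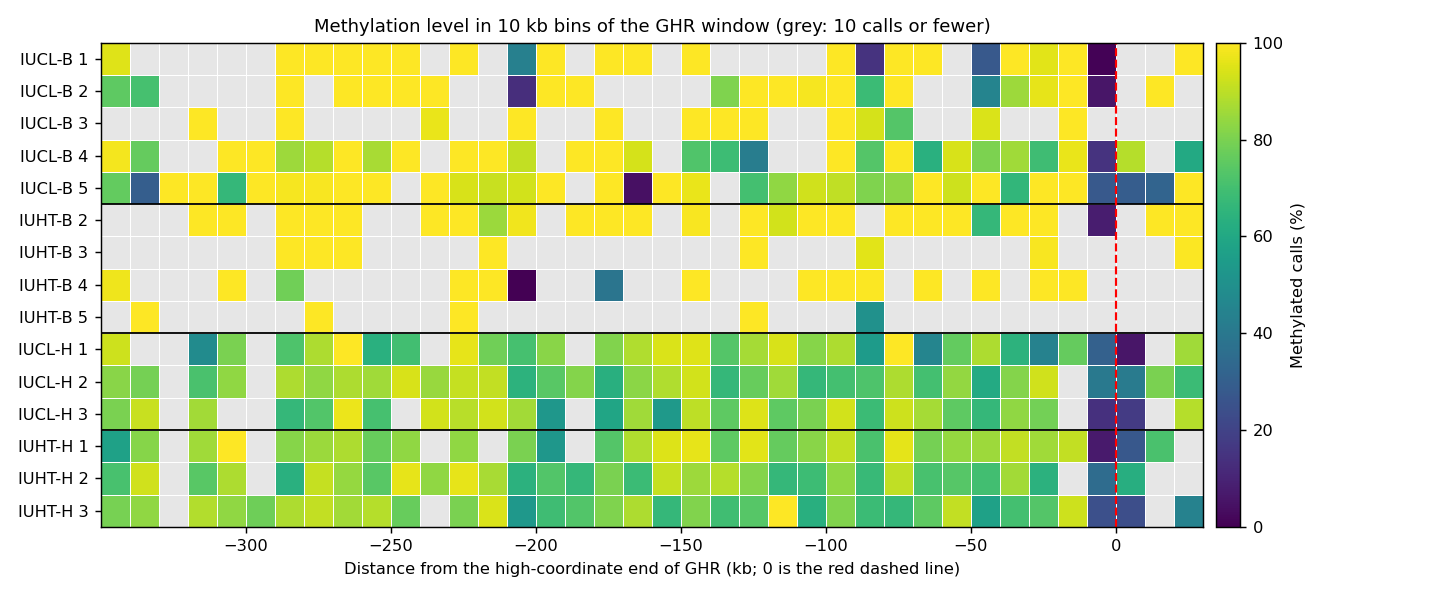
Methylation level (percent, colour) of the 38 bins of 10 kb of the GHR region, by distance from the high end of the gene (kb, horizontal axis), in each of the 15 animals (vertical axis), with bins of 10 calls or fewer in grey. Calf rows are patchy and mostly near 100%, heifer rows are nearly filled and intermediate, and bin 35, just left of the dashed line at 0, is low in every animal with more than 10 calls there.

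The tissues also differed in how values were spread within an animal. Of 177 calf bin values with more than 10 calls, 118 (66.7%) were at 95% or above and 3 at 5% or below. Of 198 heifer bin values, 12 (6.06%) were at 95% or above and 0 at 5% or below. At single positions with at least 2 reads, 96.1% ± 2.92 (SD, n = 9) of those in calves had all reads in 1 state, against 79.0% ± 3.50 (SD, n = 6) in heifers, and the ranges (91.7 to 100% and 75.1 to 84.6%) did not overlap. Calf positions were at the same time the deeper ones, with a median of 1 to 14 reads per position by calf against 1 in every heifer, and the part of library structure in this pattern was not tested.

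No bin of GHR was called between treatments in liver. With more than 10 calls in at least 3 calves of each group 6 bins could be tested (7, 8, 13, 23, 27 and 33), and 0 were called, against 3.37% of 50740 bins of the genome (2.23% hypermethylated and 1.14% hypomethylated in IUHT-B). limma and edgeR called 0 at GHR as well. Over the genome they called only 0 and 78 of 50740 bins, so little can be read from their 0 here. In the logistic regression the smallest q was 0.318, and 1 bin (16.7%) had an unadjusted p under 0.05, against 15.6% of all bins. That bin was bin 23 (chr20:32070000-32079999). It stood at 100% in IUHT-B 2, 3 and 5 and at 100, 100, 42.0 and 70.1% in IUCL-B 2, 3, 4 and 5, so it overlapped between groups and was lower only in the IUCL-B calves that stood apart from the others (19.2 points pooled, unadjusted p = 0.0479 in the genome-wide fit).

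Bin 27 (chr20:32110000-32119999) had a mean of 81.7% ± 27.4 over 3 IUHT-B calves and of 66.1% ± 30.3 over 5 IUCL-B calves (SD). Single calves set both spreads, with IUHT-B 5 at 50.1% of 827 calls and IUCL-B 1 at 14.5% of 110 calls. With positions weighted alike these were 66.7% (3 positions) and 50% (2 positions). These 827 calls were 48.1% of all calls of IUHT-B 5 in the region. Bin 33 had a mean of 99.7% ± 0.485 over 3 IUHT-B calves and of 90.2% ± 14.4 over 4 IUCL-B calves (SD), where by calls IUCL-B 4 alone was under 95%. With positions weighted alike IUCL-B 1 was under 95% too, at 66.7%.

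In mammary gland 27 bins had more than 10 calls in every heifer, and 0 were called, as were 0.00% of 160019 bins of the genome. With 3 heifers a group this regression could hardly make a call over so many bins, so its 0 says nothing about whether bins differed. limma and edgeR called 0 as well, at GHR and over the 160019 bins. At an unadjusted p under 0.05 the logistic regression had 0 of the 27 bins, limma 2 and edgeR 1. Over the genome it was 1.30% of bins in the logistic regression, 7250 of 160019 in limma and 5941 of 160019 in edgeR. Higher values in IUHT-H were found in 14 of the 27 (51.9%), against 48.8% of all bins. Nothing particular to GHR is read from these counts. The largest difference by means was in bin 36 (chr20:32200000-32209999), which starts at the outer part of the low stretch and stood at 27.3, 62.5 and 23.4% in IUHT-H and 5.68, 41.0 and 17.3% in IUCL-H (16.4 points). The low stretch took 83 of 88 calls in IUCL-H 1, the lowest heifer, and 8 of 32 in IUHT-H 2, the highest. Outside it the pooled level of bin 36 was 78.3% of 46 calls in IUHT-H and 76.5% of 34 calls in IUCL-H. By heifer the levels outside it were 88.9, 79.2 and 69.2% in IUHT-H 1 to 3 and 93.75 and 76.9% in IUCL-H 2 and 3. IUCL-H 1 had 1 methylated call among 5 there. These levels rest on 5 to 24 calls a heifer, and the difference of means outside the low stretch was not tested. Bin 1 (chr20:31850000-31859999) differed the other way, with 57.1, 70.7 and 79.6% in IUHT-H and 92.3, 82.1 and 80.0% in IUCL-H (-15.6 points). By calls its groups did not overlap, while 3.70% of the 27 bins and 9.20% of all bins had groups that did not overlap. With positions weighted alike the groups of bin 1 overlapped, at 59.6, 76.8 and 83.8% in IUHT-H and 92.7, 76.7 and 86.1% in IUCL-H. Bin 4 had a mean of 82.7% ± 7.77 over the IUHT-H and of 68.5% ± 19.2 over the IUCL-H heifers (SD, n = 3 each), where IUCL-H 1 stood at 48.0%.

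Single cytosines of GHR could not be compared between treatments. No position of the region had more than 10 reads in every animal of either tissue, nor in at least 3 animals of each group, so 0 entered the site tests, which over the genome took in 900 positions in liver and 18486 in mammary gland. At this depth neither hyper- nor hypomethylated cytosines in IUHT relative to IUCL animals were detectable at the locus.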

How the data were processed

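Double restriction enzyme reduced representation bisulfite libraries of 9 calf livers and 6 heifer mammary glands were read as single-end 50 bp reads by the authors, from fragments under 300 bp. Per the labels, reads were trimmed with Trim Galore 0.4.4 and called with Bismark 0.17.0 on UMD3.1. The deposited files give per CpG position the counts of methylated and unmethylated reads and their percent, with no normalization. Levels were recomputed from the counts per animal. No UMD3.1 genome or annotation was used here, so no sequence, exon or other pathway gene is described, and the gene ends are those of the rule.

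Levels per animal were compared by exact permutation tests. Bins of 10 kb and sites were tested over the genome by logistic regression on counts, with a dispersion and F test for bins and a likelihood-ratio test for sites, called at 15 points and a q-value of 0.2 or less. limma 3.58.1 and edgeR 4.0.16 (R 4.3.3; Python 3.11.15, numpy 2.4.6, pandas 2.3.3, scipy 1.17.1) served as alternatives, with a pseudocount of 0.5 for logits, and scripts were tested on simulated data. Named bins are those of the promoter end, the called ones, up to 5 with the largest tissue difference in each direction and up to 3 per tissue for treatment. The members are fixed by position, but the gene, lists and tests were chosen with earlier results of these data known. Replicate numbers of the calves showed no pairing in the levels, and the main tests did not pair by them. P-values measure the spread between these animals, except in bins with a dispersion at its floor of 1 and in site tests, where they measure counting error.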

Additional observations from a re-analysis of the deposited data

Results flagged for a closer look

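In 9 of 39 groups of 4 to 10 values at the locus, 1 value stood apart from the rest of its group by Dixon's criterion. Chance gives this in about 1 of 20 groups of separate values without ties, a rate that cannot be applied here, since groups overlap and many liver values are tied at 100%. These were 8 distinct values, since 1 of them stood apart in 2 overlapping groups. The promoter end of IUCL-B 3 was 100% methylated while the other IUCL-B calves stood at 25.8 to 45.6%, and its 14 calls all lay outside the low stretch. IUCL-B 4 was the low liver in 4 bins: 87.1% in bin 10, 63.6% in bin 29 and 96.6% in bin 34, where all other livers were at 100% and any departure would stand apart, and 68.75% in bin 33, where the others were at 95.5 to 100% (apart both among the IUCL-B calves and among all livers). IUCL-B 5 stood at 4.0% in bin 19, where the other livers were at 93.7 to 100%. In mammary gland, IUHT-H 2 stood at 68.2% in bin 19 (others 82.6 to 88.2%) and IUCL-H 1 at 54.5% in bin 27 (others 67.6 to 72.0%). Of these 8 values 4 belong to IUCL-B 4 and rest on few calls in some of these bins (16 in bin 33, 31 in bin 10, 33 in bin 29). All are levels by calls. With positions weighted alike IUCL-B 1, not IUCL-B 4, was the lowest liver in bin 33 (66.7 against 85.7%).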

How the results depend on the processing

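The higher level of GHR in liver kept its sign and stayed under p = 0.05 in 18 of 21 alternatives other than leaving out an animal (1.32 to 16.1 points over all 21), in exact permutation tests. It lost the threshold among IUHT animals alone (15.7 points) and with IUCL-B calves 4 and 5 as the only calves (5.82 points, or 1.32 with positions weighted alike). The cause was not tested. Leaving out 1 animal gave 12.3 to 15.2 points.

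No treatment difference in level passed the threshold of the exact permutation tests under any alternative. In liver the window difference turned to -1.71 over positions read in both groups and to -0.932 with these weighted alike (1.60 to 9.42 with 1 animal out). In mammary gland it turned to -0.308 over the gene span, -1.17 without the promoter end, -1.19 without the low stretch and -0.362 with positions weighted alike as well (0.0920 to 3.65 with 1 heifer out). The difference between these effects turned to -0.601 without IUCL-B calves 4 and 5 (0.0951 to 7.91 with 1 animal out). At the promoter end, the liver treatment difference was 12.04 with positions weighted alike and -26.8 to 19.3 with 1 calf out, and the mammary one was -1.53 without the low stretch and -2.42 to 13.8 with 1 heifer out. The tissue difference there was 18.8 without the low stretch, 19.0 with each set of similar calves also counted as 1, and 9.72 to 22.9 with 1 animal out. Within animals, promoter end minus rest was -52.6 to -45.7 in heifers (with 5 heifers the exact p cannot go below 0.0625) and -51.3 to -37.1 in calves (exact p = 0.0313 to 0.0625) with 1 animal out.

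Requiring more than 10 calls in every animal left 0 bins to compare between tissues, against 7 called with at least 3 animals per group. The latter count was 11 with no overdispersion, limma, limma with treatment as a term, or edgeR. Over the genome limma called 40611, limma with treatment 39545 and edgeR 31517 of 193069 bins, against 26739 in the logistic regression. With 1 animal out the count at GHR was 4 to 9, the 4 without IUCL-B replicate 2. Between treatments 1 bin was called in liver with at least 1 call in every animal, 1 in liver and 1 in mammary gland with no overdispersion, and 0 with any 1 animal out. Genome shares of the settings without overdispersion, with 1 call or with 1 animal out are not given here, so nothing particular to GHR is read from their counts.

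Replicate numbers were shared by IUCL-B and IUHT-B calves 2 to 5. Deviations of same-numbered calves over 5703 windows correlated at -0.0242 to 0.00690, and those of calves with unlike numbers at -0.0278 to 0.0451. No pairing was thus seen in these levels, and any other link between same-numbered calves was not tested. With the replicate block the liver window difference was 5.22 points (exact sign-flip p = 0.25, where 0.125 is the smallest possible), and limma called 0 of 14239 bins with the block and 0 without it among these calves. Heifer depth (a median of 1 read per position) and calf coverage (12 to 38 bins read) limit what can be compared at single CpGs.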

Other observations

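Outside the high end, 4 stretches of 1 kb in the region had a pooled mammary level under 50% from at least 20 calls. They stood at 41.2% (chr20:31919000-31919999), 42.4% (chr20:31945000-31945999), 43.6% (chr20:32071000-32071999) and 44.0% (chr20:32097000-32097999). In liver the same stretches stood at 96.5% of 201 calls, 0% of 1 call, 14.0% of 43 calls and 100% of 79 calls. The 43 liver calls came from 2 calves, and with every position weighted alike that stretch stood at 60% in liver and 44.4% in mammary gland.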
